A study of Mus musculus with 12 samples.

Results

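DNA methylation at the genes of fibroblast growth factor (FGF) signalling was compared between mouse embryonic stem cells (ESCs) with and without Tet proteins. A CpG counted as an FGF-gene CpG when the gene with the nearest transcription start site (TSS) was an FGF ligand, an FGF-binding protein, an FGF receptor or Klotho co-receptor, an Frs adaptor, a Sprouty, Spred, Dusp4 or Dusp6 inhibitor, or Etv1, Etv4 or Etv5, and the CpG lay at most 50000 bp from that TSS. The members were found by gene name and distance alone. They comprised 87 entries at 60 distinct CpGs, out of 31663 entries at 22659 distinct CpGs in 5 deposited lists of differentially methylated CpGs. The members lay near 21 of the 45 genes that the rule names. Over the 5 lists, 7723 genes had a listed CpG within 50000 bp, but their share of all genes was not computed.

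The assay was reduced representation bisulfite sequencing (RRBS) of undifferentiated cells. RRBS cuts DNA at CCGG sites with MspI, keeps short fragments and reads methylation after bisulfite conversion, and it does not separate 5-hydroxymethylcytosine, the product of Tet oxidation, from methylated cytosine. All 12 clones descended from a single parental clone of 129-derived ESCs with eGFP knocked into the Oct4 locus (Oct4:IRES:eGFP), and all were grown without feeders on gelatin in serum with LIF. The groups were 3 wild-type (WT) clones, 3 Tet1 knockout clones (Tet1-/-, Tet1 KO), 2 Tet2 knockout clones (Tet2-/-, Tet2 KO), 2 clones without Tet1 and Tet2 (DKO) and 2 clones without Tet1, Tet2 and Tet3 (TKO). The knockouts were small CRISPR/Cas9 insertions and deletions, and in both Tet2 KO clones and at Tet3 in both TKO clones sequencing located a single allele. In 3 clones (1 DKO and both TKO) title and genotype disagree in the labels on which Tet genes were lost, and groups follow the title here.

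Every value is a difference in methylation between 2 genotypes, in percentage points, with all clones of a genotype in 1 value. Against WT a positive value means higher methylation in the knockout, and in the direct comparison a positive value means higher methylation in Tet2 KO than in Tet1 KO. The lists hold only CpGs with at least 10 reads, a q-value under 0.05 and a difference of at least 25 points, so a gene without a listed CpG may be unchanged, less changed or not covered. Levels, depths and clone values are not in the lists, so the spread between clones is unknown and no difference between members and other CpGs was tested. The 4 comparisons with WT share the same 3 WT clones, and the direct comparison uses the clones of both single knockouts again. Values of different comparisons are therefore given side by side and are not independent.

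FGF ligands bind receptor tyrosine kinases together with heparan sulfate, and the signal passes through the adaptor Frs2 to RAS, the MAP kinases and ERK. In mouse ESCs, Fgf4 made by the cells themselves drives ERK signalling that prepares them to leave self-renewal. Sprouty and Spred proteins and the phosphatases Dusp4 and Dusp6 damp the pathway, and their genes are induced by it. Etv4 and Etv5 are transcription factors whose genes respond to FGF, and Klotho proteins are co-receptors for the endocrine FGFs.

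Of the 10 FGF-gene CpGs in the Tet1 KO list, 5 had higher methylation than WT and 5 lower, while 66.2% of all 4032 CpGs of that list within 50000 bp of a TSS were higher. In Tet2 KO, 19 of 22 were higher, against 78.5% of all 5043. In DKO, 12 of 14 were higher, against 69.3% of all 3912. Both DKO counts come from the 5587 of 7078 entries (78.9%) whose annotation could be paired with their coordinates. In TKO, 15 of 27 were higher, against 61.6% of all 5818. In the direct comparison, 12 of 14 were higher in Tet2 KO than in Tet1 KO, against 68.8% of all 2998. The Tet1 KO and TKO members lay below their background, and those of Tet2 KO, DKO and the direct comparison above it, but each background share fell within the exact Clopper-Pearson 95% interval of the members. These intervals ran from 18.7 to 81.3% for Tet1 KO, from 65.1 to 97.1% for Tet2 KO, from 57.2 to 98.2% for DKO, from 35.3 to 74.5% for TKO and from 57.2 to 98.2% for the direct comparison. They cover the counting of CpGs only, treat neighbouring CpGs as separate, and say nothing of the spread between clones.

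**Figure D1:**
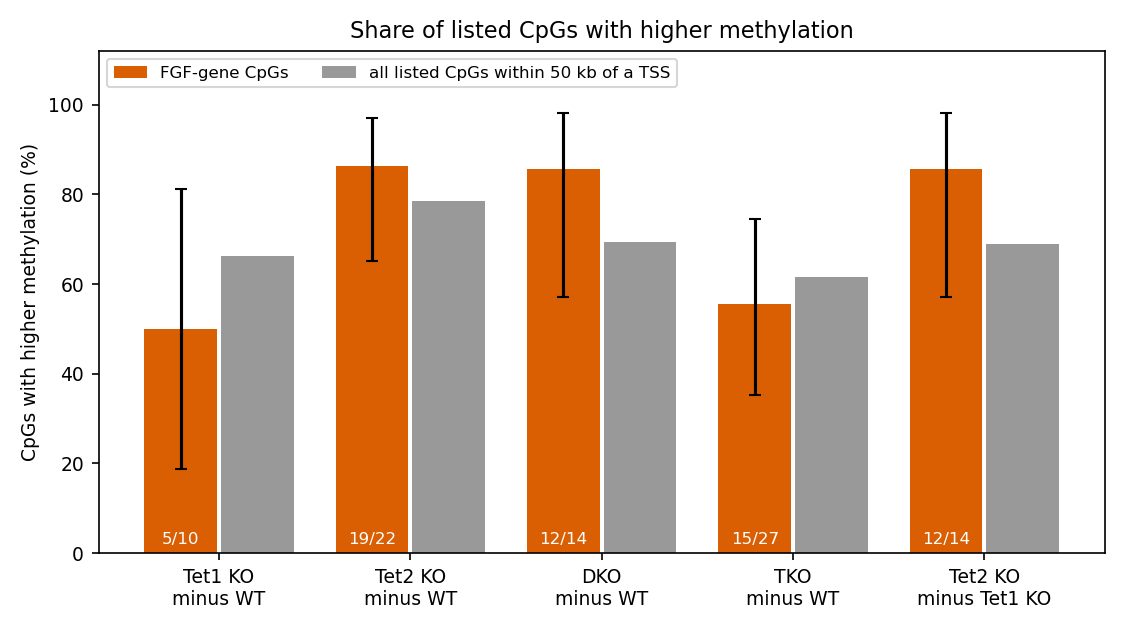
The vertical axis gives the percentage of listed CpGs with higher methylation, for the FGF-gene CpGs (orange, with exact 95% intervals and the counts) and for all listed CpGs within 50 kb of a TSS (grey), in the 5 comparisons. The member shares run from 50% in Tet1 KO to 86.4% in Tet2 KO, and every interval spans the grey bar beside it. Both DKO bars cover only entries whose annotation could be paired with their coordinates.

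The size of the differences was close to that of the lists. The median absolute difference over all 87 entries was 39.1 points, and over all 21803 entries within 50000 bp it was 36.3. The signed medians were 0.47 points in Tet1 KO, 38.6 in Tet2 KO, 37.6 in DKO, 27.6 in TKO and 43.5 in the direct comparison. For all CpGs they were 28.7, 33.7, 31.7, 29.0 and 30.8, in the same order. No listed difference is smaller than 25 points in size, so the sign of these medians follows the majority direction. With 5 CpGs higher and 5 lower, the 0.47 of Tet1 KO is the midpoint of -26.2 points (Etv4) and 27.1 points (Spry1). It does not stand for a small change. The median absolute difference in Tet1 KO was 37.4 points, beside 33.2 for all CpGs of that list. A single gene, Spred2, held 18 of the 87 entries, and 17 of these were higher. Without Spred2 the TKO count was 10 of 22, with a median of -27.0 points, whose sign changed only because the majority did. Over all lists, 46 of 69 entries (66.7%) were then higher in place of 63 of 87 (72.4%). The members thus went from just above to just below the 68.8% of all 21803 entries.

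The counts by direction are given by role, beside the 68.8% of all 21803 entries within 50000 bp that were higher. Feedback inhibitors held 42 entries, 33 higher (78.6%) and 9 lower, with a median of 35.3 points. Spred2 alone held 18 of the 42, with 17 higher, so the share of this role rests largely on 1 gene. Etv genes held 15 entries, 12 higher (80%) and 3 lower. Receptors and co-receptors held 11 entries, 8 of them higher (72.7%), close to the share of all entries. Kl held 8 of the 11, with 7 higher. Endocrine ligands held 6 entries, 5 of them higher. Secreted ligands had 2 entries higher (22.2%) and 7 lower, with a median of -28.6 points. These counts were not tested, and several entries of a role are the same CpG in different lists.

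**Figure D2:**
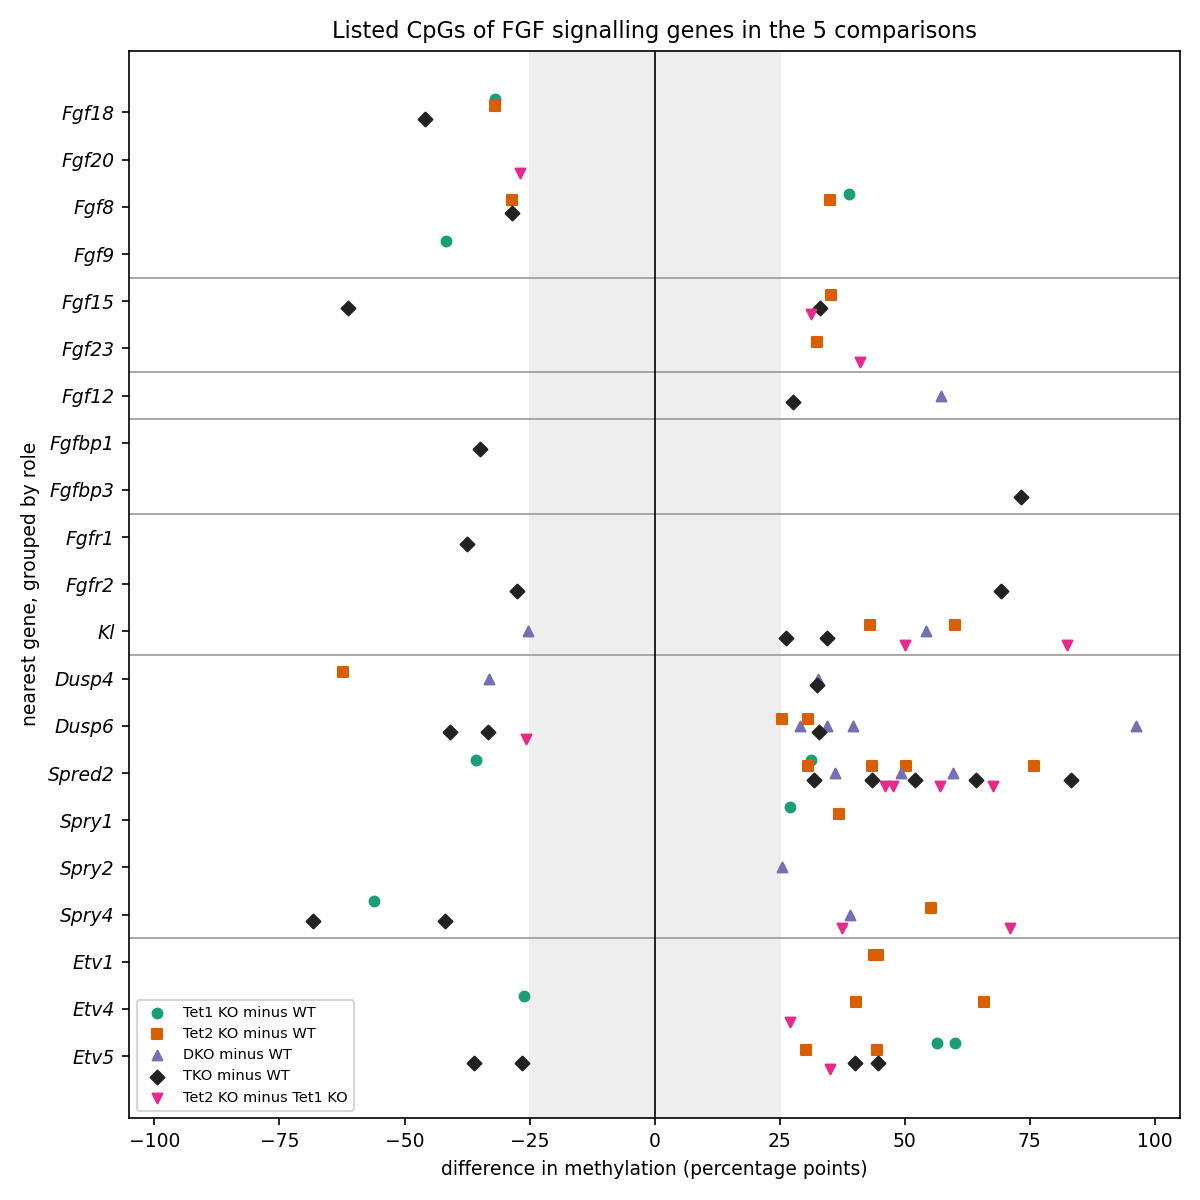
Each point is 1 listed CpG in 1 comparison, placed by its difference in methylation in percentage points (horizontal axis) and by its nearest gene (vertical axis), with lines between the roles and colours and shapes for the 5 comparisons. The grey band from -25 to 25 points holds no CpGs because the lists start at 25, and Spred2 has 17 of its 18 points on the right while all points of Fgf18, Fgf9 and Fgf20 lie on the left.

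Among secreted ligands, 4 of 15 genes had a listed CpG: Fgf8, Fgf9, Fgf18 and Fgf20. Fgf18, a growth factor for cartilage, bone and lung, had the only listed CpG in a ligand promoter. Its sequence is shown because it is the most CpG-dense window of all 60 members, with 28 CpGs in 202 bases and a GC content of 74.3%, beside medians of 6 CpGs and 49.5% for the members. Sequences here are the forward strand of mm9, read from the NCBIM37 reference, with the listed CpGs in capitals.
Fgf18 promoter, chr11:33047618-33047819: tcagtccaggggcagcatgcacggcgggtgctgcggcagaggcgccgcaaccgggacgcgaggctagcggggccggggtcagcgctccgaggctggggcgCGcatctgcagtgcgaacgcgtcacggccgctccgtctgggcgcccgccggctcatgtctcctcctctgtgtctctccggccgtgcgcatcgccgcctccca
This CpG, at -318 bp from the TSS, was lower by the same amount in both single knockouts, with -31.9 points in Tet1 KO and -31.9 points in Tet2 KO. The deposited values are equal in every digit. If the pooled WT level was the same in both comparisons, both knockouts had the same level. The WT level was at least 31.9%, since no level lies below 0. The same CpG was not listed in DKO or TKO. A second, intergenic Fgf18 CpG at 32401 bp was -45.9 points in TKO.

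Fgf8, an organiser signal of gastrulation and limb and brain patterning in the mouse, had 3 listed CpGs within 75 bp in exon 4 of 6, at 1311 to 1385 bp from the TSS. They are shown together because their directions differ over so short a stretch.
Fgf8 exon 4, chr19:45815959-45816094: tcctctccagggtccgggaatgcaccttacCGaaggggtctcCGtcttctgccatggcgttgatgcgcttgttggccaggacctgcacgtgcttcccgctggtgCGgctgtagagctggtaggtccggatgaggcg
The first capital CpG was -28.6 points in Tet2 KO and -28.6 in TKO. The second, 12 bp further on, was 38.9 points higher in Tet1 KO. The third was 35.0 points higher in Tet2 KO. Within Tet2 KO, the 2 CpGs 74 bp apart therefore had opposite signs, with 63.6 points between them.

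Fgf9, a ligand needed for testis and lung development, had 1 CpG in intron 1, inside an L1 element, at -41.6 points in Tet1 KO. Fgf20, a ligand of the ear and kidney, had 1 intergenic CpG at 15925 bp, lower in Tet2 KO than in Tet1 KO by -26.9 points. No member lay near Fgf4, the ligand of ESCs, nor near Fgf1, Fgf2, Fgf3, Fgf5, Fgf6, Fgf7, Fgf10, Fgf16, Fgf17 or Fgf22.

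Among the 3 endocrine ligands, which act as hormones, Fgf15 and Fgf23 had listed CpGs and Fgf21 had none. Fgf15, which signals from the gut to the liver, had an intergenic CpG at -9234 bp that was 35.2 points higher in Tet2 KO, 33.2 in TKO and 31.3 in Tet2 KO against Tet1 KO. The 3 values lie within 3.87 points of each other. A second Fgf15 CpG, in an Alu-family SINE at 8037 bp, was -61.3 points in TKO. Fgf23, which lowers blood phosphate, had 1 CpG in exon 2 of 3 that was 32.4 points higher in Tet2 KO and 41.0 higher in Tet2 KO than in Tet1 KO.

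Of the 4 intracellular FGFs, which bind sodium channels and do not act through receptors in the classical way, Fgf12 had 2 listed CpGs near a TSS, 11 bp apart in intron 2 of 5. The CpG at 452 bp was 57.3 points higher in DKO. The CpG at 441 bp was 27.6 points higher in TKO. Each was listed in a single comparison. The FGF-binding proteins release stored FGF from the matrix. Fgfbp1 had 1 CpG at -35.0 points in TKO, and Fgfbp3 had 1 at 73.3 points in TKO, which lay 39296 bp from its TSS in an intron of Tnks2.

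Of the receptors and co-receptors, Fgfr1, Fgfr2 and Kl had listed CpGs, and Fgfr3, Fgfr4, Fgfrl1 and Klb had none among the members. Fgfr1, the main FGF receptor of ESCs, had 1 CpG in an L2 repeat at -21705 bp that was -37.6 points in TKO. Fgfr2, which marks the primitive endoderm lineage in the embryo, had a CpG in exon 3 of 18 that was 69.3 points higher in TKO. A second Fgfr2 CpG at -5818 bp was -27.5 points in TKO. The receptor CpGs among the members were thus all from TKO. The DKO list also named Fgfr3 for 2 entries, and Klb and Fgf14 for 1 each, but its annotation was out of order with its values, and these 4 of 18 FGF entries could not be placed with the same certainty and are not counted.

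Kl encodes alpha-Klotho, the co-receptor that gives Fgf23 its high-affinity receptor. Exon 4 of 5 of Kl held 3 listed CpGs, and the middle one was the only CpG of all 60 to appear in 4 lists. The stretch with all 3 is shown because it carried the CpG listed in most comparisons.
Kl exon 4, chr5:151791522-151791769: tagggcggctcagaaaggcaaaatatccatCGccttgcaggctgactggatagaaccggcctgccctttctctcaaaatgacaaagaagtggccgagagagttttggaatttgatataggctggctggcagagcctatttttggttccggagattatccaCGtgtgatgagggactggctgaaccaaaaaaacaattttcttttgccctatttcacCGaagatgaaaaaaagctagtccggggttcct
The middle capital CpG was 60.0 points higher in Tet2 KO, 54.2 in DKO and 34.5 in TKO than in WT, and 82.4 points higher in Tet2 KO than in Tet1 KO. The direct value places Tet2 KO at 82.4% or more and Tet1 KO at 17.6% or less on the strand read there. The last capital CpG, 56 bp further on, was 43.0 points higher in Tet2 KO, 26.2 in TKO and 50.1 in Tet2 KO against Tet1 KO. The difference was smaller than at the middle CpG in each of these comparisons. The first capital CpG, 130 bp before the middle one, was -25.2 points in DKO, just past the limit of the lists.

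The feedback inhibitors held 42 of the 87 entries, and Spred2 led them. Spred2 inhibits the activation of Raf by Ras. All of its 10 listed CpGs lay in intron 1 of 5, between 8541 and 41018 bp from the TSS. The densest group is shown because a pair of CpGs 4 bp apart and another one 151 bp further on were higher in several comparisons.
Spred2 intron 1, chr11:19850888-19851104: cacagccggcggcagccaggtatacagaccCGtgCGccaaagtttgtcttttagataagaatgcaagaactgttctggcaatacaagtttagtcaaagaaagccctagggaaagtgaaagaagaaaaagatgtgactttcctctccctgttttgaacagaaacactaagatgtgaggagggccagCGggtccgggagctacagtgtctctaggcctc
The first capital CpG, at 26473 bp, was 75.8 points higher in Tet2 KO than in WT and 57.1 points higher than in Tet1 KO. The second, at 26477 bp, was 50.2 points higher in Tet2 KO, 52.1 in TKO and 46.1 in Tet2 KO against Tet1 KO. The third, at 26628 bp, was 43.4 points higher in Tet2 KO, 43.4 in TKO and 47.6 in the direct comparison. None of these CpGs was listed for Tet1 KO or DKO.

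Further into the same intron the pattern by genotype was different. The CpG at 27707 bp was 49.3 points higher in DKO and 64.2 in TKO, but -35.8 points in Tet1 KO. It is 1 of 2 member CpGs with both signs among the comparisons with WT. The other 13 CpGs in at least 2 of those lists kept the same sign. Those comparisons share the WT clones, so equal signs at a CpG are partly built in. The share with equal signs over all such listed CpGs was not computed. The CpG at 27875 bp was 31.4 points higher in Tet1 KO, so the 2 Spred2 CpGs of Tet1 KO, 168 bp apart, differed in direction. The CpG at 27897 bp was 36.1 points higher in DKO.

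The remaining Spred2 CpGs were all higher. The CpG at 8541 bp was 59.7 points higher in DKO and 31.8 in TKO. The CpG at 20569 bp was 67.7 points higher in Tet2 KO than in Tet1 KO. At the far end, the CpG at 40950 bp was 83.3 points higher in TKO, the largest increase among the TKO members, and that at 41018 bp was 30.6 points higher in Tet2 KO. Spred1 and Spred3 had no member.

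**Figure D3:**
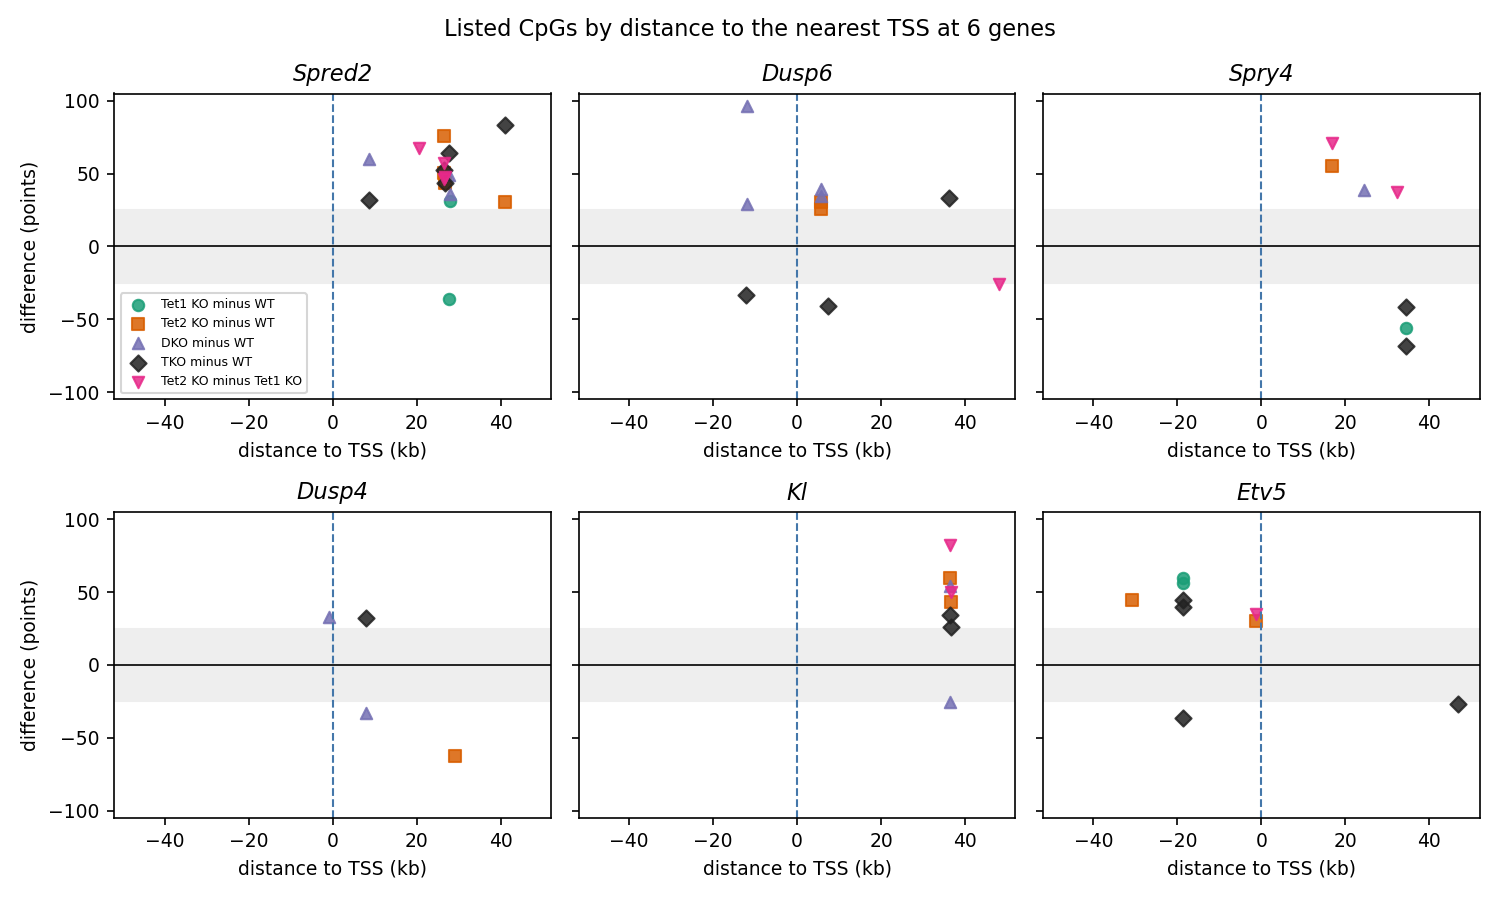
Each panel is a gene, with the distance of the CpG to the TSS in kb (horizontal axis, negative upstream, dashed line at the TSS) and the difference in methylation in percentage points (vertical axis), and the colours and shapes give the comparison. Spred2 points gather near 26 to 28 kb with 1 value below 0, the Kl points stack at 36 to 37 kb, and those of Dusp6 lie on both sides of the TSS with both signs.

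Dusp6, the cytoplasmic phosphatase of ERK, had 8 listed CpGs, all intergenic, with 7 entries higher and 3 lower. The upstream group is shown because it holds the largest difference of all 87 entries.
Dusp6 upstream, chr10:98713752-98714050: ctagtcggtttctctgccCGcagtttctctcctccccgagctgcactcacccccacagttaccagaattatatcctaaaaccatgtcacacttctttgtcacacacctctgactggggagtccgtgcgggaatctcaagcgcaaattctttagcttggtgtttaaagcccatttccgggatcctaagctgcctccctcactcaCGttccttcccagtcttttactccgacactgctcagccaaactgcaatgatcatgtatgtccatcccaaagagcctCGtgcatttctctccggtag
The first capital CpG, at -12095 bp, was -33.4 points in TKO. The second, at -11910 bp, was 29.1 points higher in DKO. The last, at -11834 bp, was 96.2 points higher in DKO, which leaves DKO at 96.2% or more and WT at 3.85% or less. The 3 CpGs lie within 262 bp, and no CpG of the group was listed in 2 comparisons.

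Downstream of Dusp6, a pair of CpGs 11 bp apart was higher in both Tet2 KO and DKO. The CpG at 5577 bp was 30.7 points higher in Tet2 KO and 39.7 in DKO. The CpG at 5588 bp was 25.5 points higher in Tet2 KO and 34.4 in DKO. In each genotype the 2 CpGs were about 5 points apart (5.18 and 5.33). The remaining Dusp6 CpGs were listed once each, at -41.0 points in TKO (7399 bp), 32.9 points in TKO (36132 bp) and -25.8 points in Tet2 KO against Tet1 KO (47986 bp).

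Dusp4, a nuclear phosphatase of ERK, had the only promoter CpG among the inhibitors. This CpG, at -798 bp, was 32.6 points higher in DKO. In intron 1, the CpG at 7994 bp was -33.1 points in DKO and 32.6 points higher in TKO. It is the second of the CpGs with both signs, and here the genotypes that differ share the loss of Tet1 and Tet2. A further CpG, 29149 bp from the Dusp4 TSS in an intron of Tnks, was -62.3 points in Tet2 KO, the largest decrease among the Tet2 KO members.

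The Sprouty proteins block growth factor signals to ERK. Spry4 had 5 listed intergenic CpGs downstream of its TSS. The CpG at 34411 bp was -56.2 points in Tet1 KO and -41.9 in TKO. Its neighbour 89 bp away, in a MIR element at 34500 bp, was -68.4 points in TKO, the largest decrease of all 87 entries. The Spry4 CpGs nearer to the TSS were higher, but they were listed in other comparisons than the lower ones. Position and comparison therefore cannot be told apart. The CpG at 16930 bp was 55.2 points higher in Tet2 KO and 71.2 in Tet2 KO against Tet1 KO. The CpG at 24431 bp was 39.1 points higher in DKO, and that at 32301 bp was 37.5 points higher in Tet2 KO than in Tet1 KO. Spry1 had 1 CpG at 27.1 points in Tet1 KO and 1 in its 3' UTR at 36.9 points in Tet2 KO. Spry2 had a single member at 25.5 points in DKO, and Spry3 had none.

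The adaptors Frs2 and Frs3, which link receptors to RAS, had no member. Among the 3 Etv genes, Etv5 had the most listed CpGs. A region upstream of Etv5 is shown because it held CpGs of both directions within 62 bp.
Etv5 upstream, chr16:22458331-22458453: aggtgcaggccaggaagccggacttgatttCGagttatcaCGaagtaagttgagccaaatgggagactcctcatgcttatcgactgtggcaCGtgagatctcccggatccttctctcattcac
The first capital CpG, at -18718 bp, was 60.0 points higher in Tet1 KO and 40 in TKO. The second, at -18728 bp, was 56.5 points higher in Tet1 KO and 44.7 in TKO. These were the largest increases of the Tet1 KO members. The third, 51 bp from the second, was -36.2 points in TKO. The first 2 lie 12 and 22 bp from 1 CCGG site of the stretch and the third lies 12 bp from the other.

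Nearer to the gene, an Etv5 CpG at -1191 bp was 30.2 points higher in Tet2 KO than in WT and 35.0 points higher than in Tet1 KO. Another CpG, at -30784 bp in an intron of Dgkg, was 44.4 points higher in Tet2 KO. In intron 11 of Etv5 the CpG at 46934 bp was -26.6 points in TKO. Etv4 had a CpG in its exon 7 at 65.8 points in Tet2 KO and an intergenic CpG at -49524 bp at 40.2 points in Tet2 KO and 27.0 in the direct comparison. Another Etv4 CpG, at 18487 bp in the last exon of Dhx8, was -26.2 points in Tet1 KO. Etv1 had 2 CpGs 2 bp apart in intron 5, at 44.6 and 44.0 points in Tet2 KO. All 6 Etv entries of Tet2 KO were higher, from 30.2 to 65.8 points, in a list with 78.5% of CpGs higher. The 4 of TKO were 2 higher and 2 lower, in a list with 61.6% higher, and the difference between the genotypes was not tested.

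Of the 60 CpGs, 40 were in 1 list, 14 in 2, 5 in 3 and 1 in 4. Counting the 4 comparisons with WT alone, 73.2% of 56 member CpGs were in a single list, beside 73.0% of all 14118 CpGs. In 20 cases, consecutive CpGs of a gene lay within 200 bp in the same comparison, and 16 of these had the same sign. Several of the cases are the same pair of CpGs in different comparisons. The share with the same sign among all listed neighbouring CpGs was not computed. The 16 differed by 0.622 to 67.0 points, with a median of 8.49. The 4 with opposite signs were at Kl in DKO, Fgf8 in Tet2 KO, Etv5 in TKO and Spred2 in Tet1 KO. CpGs this close can lie on the same sequencing read or fragment, so they are not independent measurements.

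At 10 CpGs both Tet2 KO against WT and Tet2 KO against Tet1 KO were listed, near Spred2 (3), Kl (2), Etv4, Etv5, Fgf15, Fgf23 and Spry4. All 20 values were positive. Both comparisons use the Tet2 KO clones, so equal signs at a CpG are partly built in. The share with equal signs over all CpGs listed in both was not computed. Subtracting the direct value from the value against WT gives the difference between Tet1 KO and WT that they imply. This difference ran from -22.4 points at Kl to 18.7 points at Spred2, with a median of -4.49. None reached 25 points, and none of the 10 CpGs was listed for Tet1 KO. The direct list gives single strands, whereas those against WT give the forward cytosine of each CpG, so the subtraction is approximate.

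By position, 11 entries (12.6%) lay within 2000 bp of a TSS, beside 17.1% of all entries within 50000 bp. These were the 4 of Fgf8, 2 each of Fgf12, Fgf18 and Etv5, and 1 of Dusp4, with 7 higher and 4 lower. The share higher among all entries within 2000 bp was not computed. Promoters held 3 entries, 1 higher and 2 lower, beside 80.0% higher among all 1186 promoter entries. The 2 lower ones were the same Fgf18 CpG in Tet1 KO and in Tet2 KO. Introns held 30 entries, 25 of them higher (83.3%), beside 67.5% of all intronic entries, and 18 of the 30 were those of Spred2. Exons held 17 entries, 13 higher (76.5%), beside 71.2% of all exonic entries. Intergenic DNA held 36 entries, 23 higher (63.9%), beside 66.8%. Repeats held 5 entries (5.75%), beside 19.5% of all entries. Of the 5, 1 was higher and 4 were lower, beside 62.8% higher among all 4247 entries in repeats. All 60 member CpGs lay within 40 bp of a CCGG, as did 98.4% of all listed CpGs, and none was itself in a CCGG.

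The limit of 50000 bp left out 49 entries of the same genes. Just inside it lay the Etv4 CpG at -49524 bp with its 40.2 and 27.0 points. Just outside it lay an Etv4 CpG at -52762 bp with -27.6 points in Tet1 KO, a Spry4 CpG at -54509 bp with -36.9 in DKO and a Fgfr2 CpG at 55008 bp with 47.6 in TKO.

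Genes that act with the FGF pathway were counted by the same limit from 4 further lists of 76 genes. Of these, 36 had a listed CpG, with 123 entries, 99 higher and 24 lower (80.5%), beside 68.8% of all 21803 entries over the 5 lists. The entries were uneven over the genes, with 13 at Sulf2, 10 at Gab1 and 9 each at Sulf1 and Pik3cb. Several are the same CpG in different lists, and the difference between the 2 shares was not tested. The counts of genes with a listed CpG have no share of all genes beside them. The heparan sulfate and matrix partners had 39 entries higher and 6 lower at 13 of 24 genes. The adaptors and kinases of the RAS, PI3K and PLC branches had 34 higher and 11 lower at 12 of 31 genes, the other negative modulators 21 higher and 5 lower at 7 of 12, and the response genes 5 higher and 2 lower at 4 of 9.

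Sulf1 and Sulf2, the sulfatases that trim heparan sulfate at the cell surface, were listed in all 5 comparisons, with 8 of 9 and 11 of 13 entries higher. In intron 2 of Sulf1, a CpG at 27598 bp was 78.9 points higher in Tet2 KO, 29.6 in DKO, 27.0 in TKO and 67.9 in Tet2 KO against Tet1 KO. In intron 3 of Sulf2, a CpG at 49464 bp was 64.5 points higher in Tet2 KO, 42.6 in DKO and 87.9 in the direct comparison. Near the Sulf1 TSS, a promoter CpG at -257 bp was 40 points higher in TKO.

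Gab1, the docking protein that joins Frs2 to PI3K, was also listed in all 5 comparisons, and all 10 of its entries were higher. A CpG in its intron 1, at 33453 bp, was 27.8 points higher in Tet1 KO, 59.7 in Tet2 KO and 82.4 in TKO. Sh3bp4, a protein of receptor trafficking, had 7 entries, all higher, and its CpG at 1817 bp was 92.3 points higher in DKO and 49.2 in TKO. Akt2, a kinase below PI3K, was the gene in at least 3 lists with lower values throughout, from -25.7 points in Tet1 KO to -58.0 in TKO.

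The same rule also named Pik3cb, with 8 of 9 entries higher, Pik3r1 (4 of 5), Rps6ka1 (4 of 7), Sos1 (2 of 3), Dusp1 (4 of 4), Dusp10 (5 of 5), Dusp7 (2 of 4), Lrig3 (2 of 4) and Ets2 (3 of 4). Gpc5, Fos and Rps6ka2 had 1 entry each near a TSS that was higher, and Flrt2 and Pik3r2 had 1 each that was lower.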

How the data were processed

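RRBS libraries of 12 clones were analysed. Per the labels and the methods of the study, the authors trimmed reads with Trim Galore 0.5 and Cutadapt, aligned them to mm9 with Bismark 0.19.1, called CpGs with methylKit at 10 reads or more, kept those with a q-value under 0.05 and a difference of at least 25 points, and annotated them with HOMER. Each deposited value is the authors' own difference in percent methylation between groups of clones at 1 CpG, beside a distance to the nearest TSS. The authors' values of their comparisons are thus the only measurements used. Depth and precision per CpG are unknown. Replicates are separate clones of 1 parental line.

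In the DKO list the annotation was out of order with the coordinates. Only 6.14% of its rows named a gene of their own chromosome. Entries were paired anew by promoter and distance, with promoter positions taken from the other lists. This placed 5587 of 7078 entries (78.9%), and 14 of 18 FGF entries. Since the promoter positions fix where an entry can be placed, that 99.9% of placed entries lay on the right chromosome is largely built in. In the direct list 2036 positions were reverse-strand cytosines and were shifted by 1 base onto the forward strand. All positions on assembled chromosomes were CpGs of NCBIM37. Gene symbols of overlapping transcripts came from RefSeq tables by accession.

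Python 3.11.15, pandas 2.3.3 and scipy 1.17.1 were used. CpGs were counted by direction, and no test was run. The members, gene lists and roles were chosen with earlier results of these data known. Values are given for genes with a CpG within 2000 bp of a TSS or in at least 3 lists, for CpGs in at least 2 lists and for the 3 largest increases and decreases of each list, and the few other members are given as well. Other pathway genes are named where a CpG lay within 2000 bp of a TSS or in at least 3 lists.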

Additional observations from a re-analysis of the deposited data

How the results depend on the processing

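No paired analysis was possible because the lists hold no value per clone, and for the same reason no clone could be left out and no other read minimum tried. With a limit of 10000 bp from the TSS the FGF-gene CpGs numbered 4 in Tet1 KO, 9 in Tet2 KO, 7 in DKO, 9 in TKO and 3 in the direct comparison, and with a minimum difference of 40 points 4, 12, 5, 13 and 8, since both settings keep fewer CpGs. The share with higher methylation became 100% in DKO at 40 points and 100% in the direct comparison at both settings. In the other settings the shares stayed within the 95% intervals of the report: 37.5 to 50% for Tet1 KO, 77.8 to 91.7% for Tet2 KO and 44.4 to 61.5% for TKO. Below 50%, the TKO share at 10000 bp and without Spred2 (45.5%) had more CpGs lower than higher, and so did Tet1 KO after CpGs within 1000 bp were merged (37.5%). Leaving out Spred2 was chosen after seeing the data. With further DKO entries paired through the annotated TSS the share was 81.2% of 16. With the DKO annotation as deposited it was 72.2% of 18. Only 6.14% of those rows named a gene of their own chromosome, so that share does not describe FGF genes.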

Other observations

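Beyond 50000 bp lay 49 entries of the same genes, 38 higher and 11 lower. The share higher among all listed CpGs beyond 50000 bp was not computed, so these counts have no background beside them. Of the CpGs of these 49 entries, 12 were in 2 or more of the 5 lists, with 9 higher in each, 2 lower in each and 1 with both signs. They are given as values only, and were chosen after their values were seen. Downstream of the Etv5 TSS, a CpG at 80753 bp was 28.3 points higher in Tet1 KO, 85.1 in Tet2 KO and 40.3 in DKO than in WT. Its neighbour at 80762 bp was 81.1 points higher in Tet2 KO and 31.8 in DKO. In Tet2 KO against Tet1 KO the same CpGs were 50.7 and 56.0 points higher. The first of them was thus listed in all comparisons except TKO.

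Downstream of Spry2, a CpG at 81228 bp was 51.4 points higher in DKO and 50.1 in TKO, and another at 81205 bp was 31.4 and 33.5. At Spred2, a CpG at -101911 bp was 34.5 points higher in Tet1 KO, 38.3 in Tet2 KO and 29.7 in DKO. Another Spred2 CpG, at -139054 bp, was 56.4 points higher in Tet2 KO, 48.6 in TKO and 38.8 in the direct comparison. The Spred2 CpG at 93548 bp was 26.1 points higher in Tet2 KO, 33.2 in DKO and 32.6 in TKO, while its neighbour at 93659 bp was -28.8 points in DKO. At Dusp4, a CpG at 65502 bp was 34.8 points higher in Tet1 KO and 66.7 in DKO. The Fgf9 CpG at 400591 bp was 52.5 points higher in both Tet2 KO and DKO.

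The 2 CpGs lower in each list were at Fgf12 and Etv1. The Fgf12 CpG at -75734 bp was -38.6 points in Tet1 KO and -28.2 in Tet2 KO. The Etv1 CpG at 146721 bp was -28.6 points in Tet2 KO and -25.8 in Tet2 KO against Tet1 KO. The CpG with both signs, at -93837 bp of Spry4, was 27.2 points higher in Tet1 KO than in WT and -29.9 points in Tet2 KO against Tet1 KO. Both values put Tet1 KO above the other genotype, so the 2 signs do not conflict.

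Among DKO entries that could be paired only through the annotated TSS, a CpG 362 bp into Fgf14, an intracellular FGF, was -27.9 points, and one at -2516 bp of Klb, the co-receptor of Fgf15 and Fgf21, was 54.5 points. Neither is counted among the 60 CpGs.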
